A study of Homo sapiens with 24 samples.

Results

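The extracellular signal-regulated kinases (ERK1 and ERK2) switch on genes that in turn restrain them, and also genes of transcription factors. Of these kinds, 10 genes were followed here and are called feedback genes below. They are the dual-specificity phosphatases DUSP4, DUSP5 and DUSP6, the Sprouty genes SPRY1, SPRY2 and SPRY4, the Sprouty-related genes SPRED1 and SPRED2, and the ETS transcription factor genes ETV4 and ETV5. They were chosen by symbol from the 25082 genes of the normalised count table, and all 10 were found and passed the filter on low values, which 19882 genes passed. The rule of choice uses symbols and no measured value, though the genes were chosen with earlier results of these data known. The cells are SET2, a human megakaryoblast line established from a patient with a myeloproliferative neoplasm, which needs JAK2 to grow.

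The series holds 24 poly(A) RNA libraries, 3 in each of 8 groups. In 4 groups the cells were lines that had become persistent to a type I JAK inhibitor and went on growing in it: BMS911543, a JAK2-selective inhibitor, CYT387 (momelotinib), INC424 (ruxolitinib) and SAR302503 (fedratinib). SET2 cells exposed acutely to INC424 made up a 48 h group and a 4 h group, and cells given the vehicle DMSO for 4 h were their control. Naive SET2 cells were the control of the persistent lines. All cells were grown in the same medium with 20% foetal calf serum. The labels give no inhibitor concentration and no time for the persistent lines, so levels in lines kept in different inhibitors stand side by side at unmatched doses. Each inhibitor is represented by 1 persistent line, so that the spread between its libraries is not the spread between lines, and the labels do not say whether the 3 libraries of a group came from separate cultures. The p-values therefore measure the spread between these libraries, which may be technical. The vehicle was sampled at 4 h only, so at 48 h the inhibitor and the longer culture cannot be told apart.

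In cells with an active JAK2, cytokine receptors activate STAT proteins and, through the adaptor GRB2 and the exchange factor SOS, the small GTPase RAS, the kinase RAF, the kinase MEK and finally ERK. ERK is switched off where DUSP6 removes its phosphates in the cytosol and where DUSP4 and DUSP5 do so in the nucleus, while Sprouty and SPRED proteins act upstream and dampen the activation of RAS and RAF. SPRED proteins do this by bringing the RAS inactivator neurofibromin to the membrane. ETV4 and ETV5 are transcription factors whose genes are held silent by the repressor CIC until ERK removes it. Because their transcripts follow ERK activity, these genes are widely read as its output.

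RefSeq promoters (GRCh38.p14, 250 bases before to 50 after a start) were at hand for 6 of the 10 genes. Those of the 4 genes with an entry that were lower after 4 h of INC424 are shown because these genes moved together at the earliest time. Where a gene has several starts, the most upstream is given. Each runs 5′ to 3′ along the gene, and capitals mark any of the searched motifs.
DUSP6 chr12:89352452-89352751 (minus strand): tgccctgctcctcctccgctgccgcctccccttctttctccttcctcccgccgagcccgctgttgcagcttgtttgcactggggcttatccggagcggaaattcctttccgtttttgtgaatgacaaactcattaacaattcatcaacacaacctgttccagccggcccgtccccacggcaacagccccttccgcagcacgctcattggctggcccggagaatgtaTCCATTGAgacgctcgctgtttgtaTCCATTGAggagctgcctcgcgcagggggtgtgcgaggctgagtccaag
SPRED1 chr15:38252586-38252885 (plus strand): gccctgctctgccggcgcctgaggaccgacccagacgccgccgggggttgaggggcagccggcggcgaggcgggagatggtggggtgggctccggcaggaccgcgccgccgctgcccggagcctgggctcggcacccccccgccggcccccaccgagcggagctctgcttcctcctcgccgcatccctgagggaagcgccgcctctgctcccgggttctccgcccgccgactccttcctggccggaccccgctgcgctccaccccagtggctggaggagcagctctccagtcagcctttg
SPRED2 chr2:65432550-65432849 (minus strand): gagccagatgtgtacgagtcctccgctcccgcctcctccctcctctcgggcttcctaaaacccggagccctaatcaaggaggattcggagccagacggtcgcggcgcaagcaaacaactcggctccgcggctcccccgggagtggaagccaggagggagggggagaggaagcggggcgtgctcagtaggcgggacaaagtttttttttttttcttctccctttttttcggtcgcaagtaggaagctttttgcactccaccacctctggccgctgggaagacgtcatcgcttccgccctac
SPRY2 chr13:80341077-80341376 (minus strand): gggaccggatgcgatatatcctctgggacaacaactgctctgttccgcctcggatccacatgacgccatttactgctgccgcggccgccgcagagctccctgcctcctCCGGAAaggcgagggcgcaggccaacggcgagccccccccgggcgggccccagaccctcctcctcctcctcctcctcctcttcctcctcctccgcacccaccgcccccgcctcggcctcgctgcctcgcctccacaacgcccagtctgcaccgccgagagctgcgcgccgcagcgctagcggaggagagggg
Both strands were searched for the ETS core CCGGAA, the cAMP response element TGACGTCA, the AP-1 motif TGANTCA, the STAT motif TTCNNNGAA and the CIC octamers TGAATGAA, TGAATGGA, TCAATGAA and TCAATGGA. DUSP6 held the octamer TCAATGGA in both capitalised places, read on the strand opposite to the gene, at bases 227 to 234 and 252 to 259. SPRY2 held the ETS core at bases 109 to 114. The SPRED1 window and the SPRED2 window shown held none of these letters. The window of another SPRED2 start, chr2:65366729-65367028 on the minus strand, held the AP-1 motif at bases 245 to 251 and 285 to 291, and those of the other SPRY2 starts held none. SPRY1, which did not fall at 4 h, held the STAT motif at bases 63 to 71 and the ETS core at bases 184 to 189 of a window not shown, chr4:123398136-123398435 on the plus strand. The window of its other start and that of SPRY4 held none. Of 35116 promoters of this length, 17.2% held the ETS core, 1.85% the cAMP response element, 7.71% the AP-1 motif, 7.66% the STAT motif and 0.51% the octamer TCAATGGA. Any of the 4 octamers was found in 3.77%, and that set was completed after the DUSP6 sequence had been seen. A match describes the letters of the window and is not a binding site.

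The libraries held 21770721 to 36160750 reads assigned to genes. Library 2 of the CYT387 line stood apart: 10 markers of squamous epithelium, keratins among them, took 0.448% of its reads, against at most 0.0987% in any other library, and 9 markers of stroma, vessel and macrophages took 0.693%, against 0.017% and 0.0171% in the other CYT387 libraries. Its megakaryoblast markers took 0.401%, against 0.774% and 0.769% in those libraries. It was left out of the fit, which leaves 2 CYT387 libraries. The next richest in squamous markers were SAR302503 line library 3 with 0.0987%, INC424 line library 2 with 0.028%, INC424 48 h library 3 with 0.0205% and SAR302503 line library 2 with 0.0169%, while the other 19 held at most 0.0071%. Of the 10 squamous markers, 9 were higher in the SAR302503 line and 7 in the INC424 line than in naive cells. KRT5 averaged 4279 normalised counts in the SAR302503 line and 1726 in the INC424 line, against 126 in naive cells. Its change in the INC424 line did not pass (adjusted p = 0.056). The 16 megakaryoblast markers, the integrin gene ITGA2B among them, took 0.428% to 0.795% of reads in the 23 libraries fitted, the 9 markers of stroma, vessel and macrophages that were found took 0.00568% to 0.0171%, and the lymphoid markers at most 0.00433%. ITGA2B averaged 99411 normalised counts in naive cells, while PF4, a gene of mature platelets, had no reads in the naive and SAR302503 libraries. The part of other cells' RNA in the results below was not tested. Calls that change without the 4 libraries richest in squamous RNA are given where they arise. Those 4 are CYT387 line library 2, SAR302503 line library 3, INC424 line library 2 and INC424 48 h library 3. SAR302503 line library 2 stayed in that fit. In bulk RNA, fewer cells of a kind and less RNA per cell cannot be told apart.

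**Figure D1:**
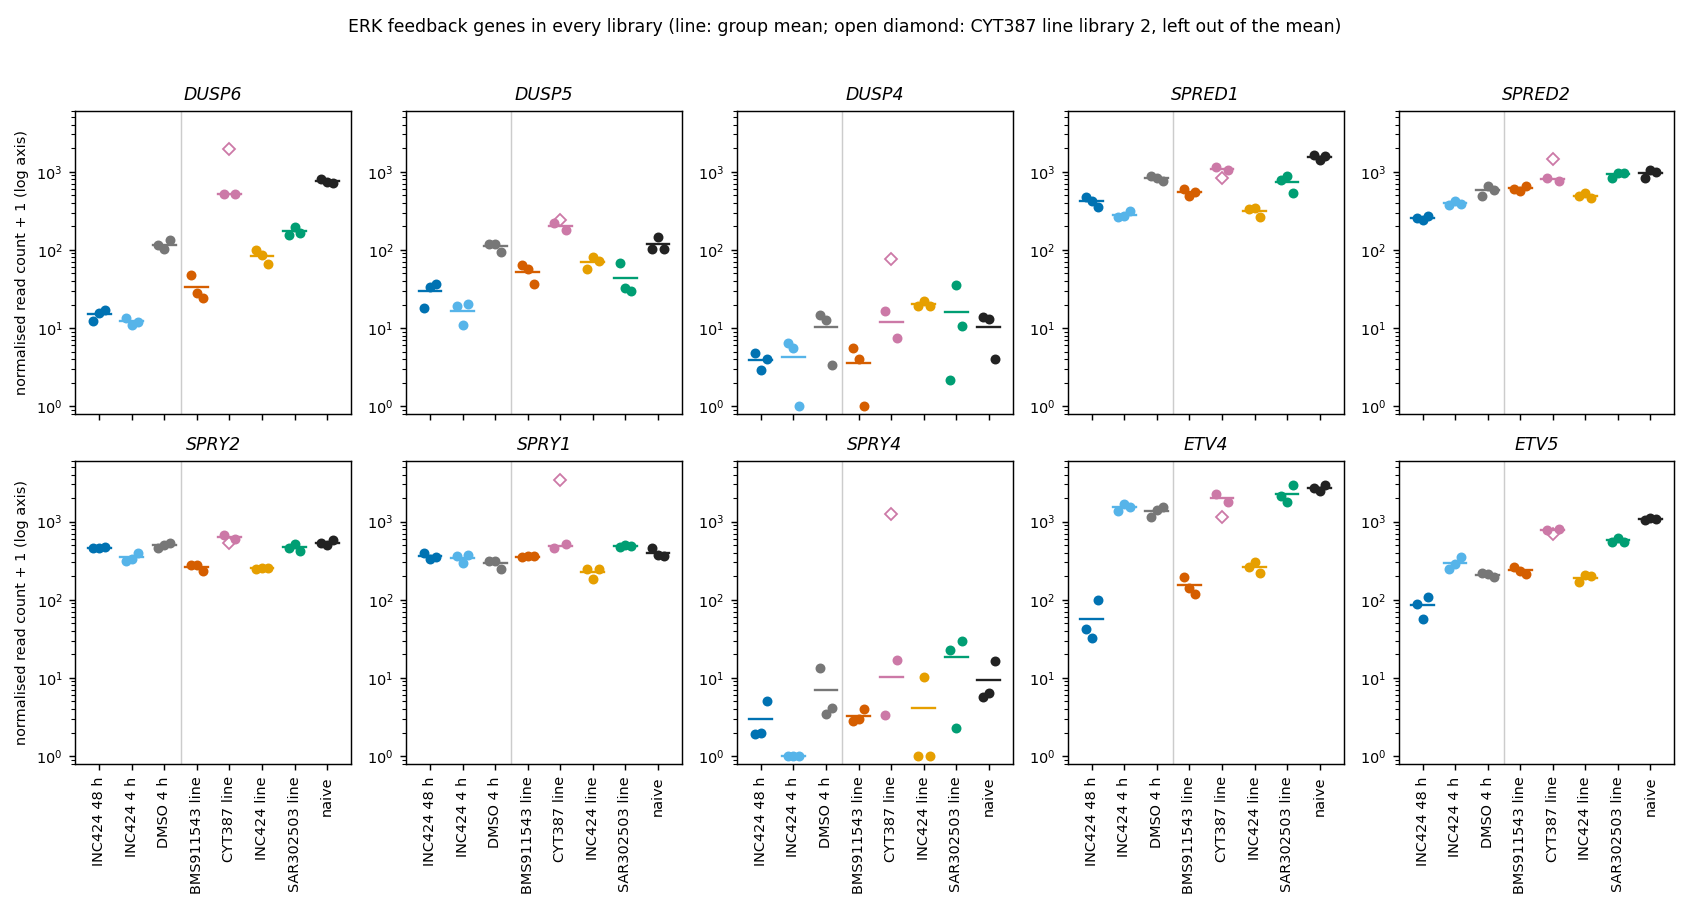
Normalised read count plus 1 of each of the 10 genes in every library, on a log axis, with the acute groups left and the persistent lines and naive cells right in each panel. Points are libraries, lines are group means and the open diamond is the CYT387 library left out of the mean; DUSP6 averaged 13.9 counts after 48 h of INC424 and 754 in naive cells, while SPRY1 and SPRY2 averaged between 226 and 639 in every group.

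After 4 h of INC424, transcripts of DUSP6, DUSP5, SPRED1, SPRED2 and SPRY2 fell below their levels with DMSO, while those of ETV4 and ETV5 did not. No gene of the 10 rose, against 9.84% of all genes tested that did. The 5 genes that fell compare with 6.84% of all genes, and the median log2 change of the 10 genes was -0.96, against -0.01 for all genes tested. At 48 h 6 of the 10 genes were below DMSO, against 21.5% of all genes, ETV4 and ETV5 were then among them, and again none of the 10 was above it, against 23.1% of all genes. Changes are differences of log2(normalised count + 1), which understates the change of genes with few reads, and a gene is said to rise or fall where its adjusted p was below 0.05.

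DUSP6, the cytosolic ERK phosphatase, had 11.3, 14.6 and 16 normalised counts at 48 h of INC424, 12.6, 9.92 and 11 at 4 h, and 115, 102 and 131 with DMSO. No INC424 library came near a DMSO library, and the INC424 times overlapped each other. The fall was 9.58-fold at 4 h (log2 change -3.26 ± 0.24 SE, adjusted p = 2.07e-09, or -2.57 with a pseudocount of 10) and 7.86-fold at 48 h (-2.97 ± 0.24, adjusted p = 1.03e-09). These low levels rest on 11 to 16 reads in each INC424 library.

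DUSP5, which acts on ERK in the nucleus, followed the same course. It had 16.9, 33 and 36 normalised counts at 48 h, 18, 9.92 and 19 at 4 h, and 119, 119 and 92.5 with DMSO, with no overlap between either INC424 group and DMSO. Its log2 change was -2.78 ± 0.35 at 4 h (adjusted p = 3.69e-06) and -1.97 ± 0.35 at 48 h (adjusted p = 5.97e-05). The level at 48 h exceeded that at 4 h by 0.81 ± 0.35, which did not pass (adjusted p = 0.089) but did without 48 h library 1 (1.14, adjusted p = 0.028). DUSP4, the other nuclear phosphatase, was scarce, with 2 to 4 reads per library at 48 h, 0 to 6 at 4 h and 3 to 17 with DMSO. Its groups overlapped, and no acute change was detectable at this depth.

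SPRED1 fell at both times. Its levels were 477, 425 and 351 normalised counts at 48 h, 259, 272 and 316 at 4 h, and 872, 826 and 762 with DMSO, so that the groups did not overlap and 4 h was the lowest. The log2 change against DMSO was -1.54 ± 0.16 at 4 h (adjusted p = 2.39e-07) and -0.98 ± 0.16 at 48 h (adjusted p = 2.26e-05). SPRED1 was higher at 48 h than at 4 h by 0.56 ± 0.16 (adjusted p = 0.011), a call that is lost without 48 h library 1 (adjusted p = 0.073).

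SPRED2 moved the other way between the times. It had 254, 237 and 272 normalised counts at 48 h, 371, 419 and 391 at 4 h, and 492, 649.7 and 586 with DMSO, and the 3 groups did not overlap. The log2 change was -0.54 ± 0.13 at 4 h (adjusted p = 0.004) and -1.17 ± 0.13 at 48 h (adjusted p = 8.06e-08), and 48 h lay below 4 h by a further step (-0.63 ± 0.13, adjusted p = 0.00066). In the fit of all 24 libraries the 4 h call is lost (adjusted p = 0.071).

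Among the Sprouty genes, SPRY2 passed against DMSO at 4 h and not at 48 h. It had 453, 463 and 476 normalised counts at 48 h, 316, 334 and 395 at 4 h, and 453, 499 and 531 with DMSO. The 48 h libraries overlapped the DMSO libraries and lay above all 4 h libraries. The log2 change was -0.51 ± 0.13 at 4 h (adjusted p = 0.0064) and -0.09 ± 0.13 at 48 h (adjusted p = 0.6), and 48 h against 4 h was 0.42 ± 0.13 (adjusted p = 0.017). Without 48 h library 3, 4 h library 1 or 4 h library 2, the call of 48 h against 4 h is lost (adjusted p 0.058 to 0.079).

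SPRY1 stayed near its control. It averaged 363 ± 35.6 normalised counts at 48 h, 346 ± 44.5 at 4 h and 292 ± 41.9 with DMSO (SD, n = 3 each), and neither change passed (adjusted p = 0.09 at 48 h and 0.3 at 4 h). All 48 h libraries lay above the DMSO libraries (log2 change 0.32 ± 0.15), while the 4 h libraries overlapped them. SPRY4 had 1, 1 and 4 reads at 48 h, 0 in all 3 libraries at 4 h, and 15, 3 and 4 with DMSO. Its mean with DMSO stood 6.36-fold above a floor of 3 reads over the 4 h group. Without DMSO library 1, which holds 15 of the 22 DMSO reads, it stood 3.01-fold above. These values leave out the counting error of the DMSO reads. Squamous markers took 0.00709% of reads in DMSO library 1, against 0.00106% and 0.00122% in the other DMSO libraries. The part of squamous RNA in its SPRY4 reads was not tested. The fitted change did not pass (adjusted p = 0.079). With a pseudocount of 0.5 or in edgeR on the reads it did (adjusted p = 0.045 and 0.047). It also passed without the 4 libraries richest in squamous RNA (adjusted p = 0.037) and without SAR302503 line library 2 alone (adjusted p = 0.04).

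ETV4 and ETV5 behaved unlike the phosphatases. ETV4 had 41.3, 31.1 and 97.1 normalised counts at 48 h, 1373, 1662 and 1557 at 4 h, and 1136, 1400.5 and 1547 with DMSO. The 4 h and DMSO libraries overlapped, and every 48 h library was far below both. Its change was 0.18 ± 0.27 at 4 h (adjusted p = 0.73) and -4.73 ± 0.27 at 48 h (adjusted p = 2.52e-12), a 26.5-fold fall.

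ETV5 had 87.2, 56.3 and 107 normalised counts at 48 h, 243, 288 and 354 at 4 h, and 217, 213 and 195 with DMSO. The 4 h libraries were all above and the 48 h libraries all below the DMSO range. The log2 change was 0.49 ± 0.18 at 4 h (adjusted p = 0.068), and -1.35 ± 0.18 at 48 h (adjusted p = 1.58e-06). The 4 h change passed in edgeR and DESeq2 on the reads and in the fit of only the groups compared (adjusted p = 0.04, 0.011 and 0.032). It also passed without the 4 libraries richest in squamous RNA (adjusted p = 0.032), and without 48 h library 2, 48 h library 3 or 4 h library 1 (adjusted p 0.027 to 0.044). Between the times both genes fell, with a log2 change at 48 h from 4 h of -4.90 ± 0.27 for ETV4 and -1.84 ± 0.18 for ETV5 (adjusted p = 5.8e-12 and 7.84e-08). In that comparison of 48 h with 4 h, 3 of the 10 genes were lower, against 12.7% of all genes, and 2 were higher, against 12.8%.

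**Figure D2:**
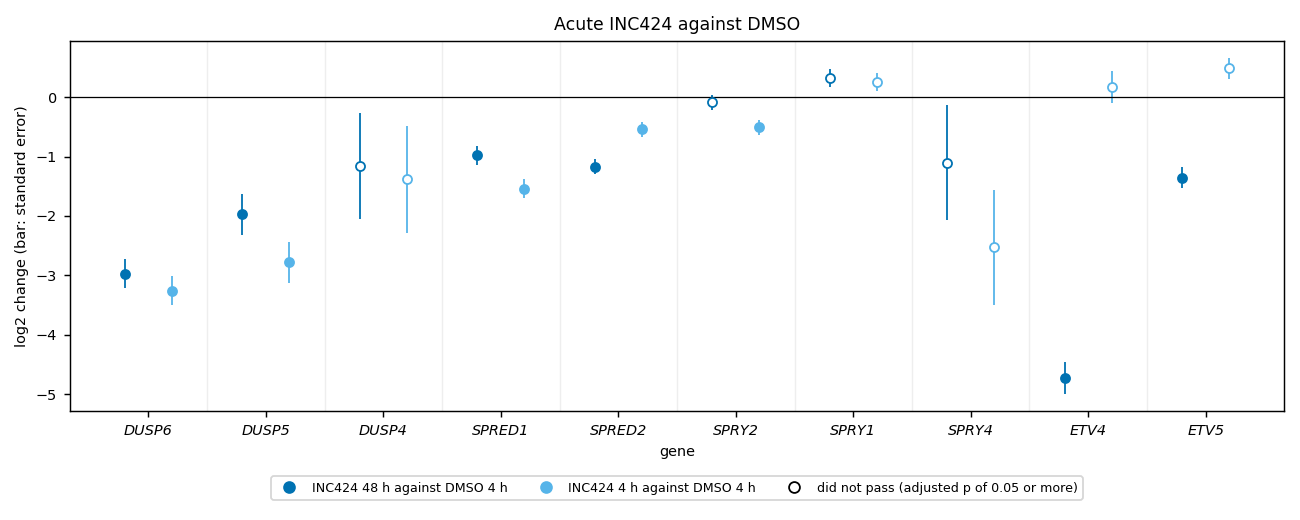
Fitted log2 change of each gene after INC424 for 48 h (dark) and 4 h (light), both against DMSO at 4 h, with bars for 1 standard error and open points where the adjusted p was 0.05 or more. DUSP6 and DUSP5 are low at both times, ETV4 lies at 0.18 at 4 h and at -4.73 at 48 h, and SPRY1 lies at 0.25 at 4 h and at 0.32 at 48 h.

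Of the acute libraries, the labels say of DMSO libraries 2 and 3, INC424 4 h libraries 1 and 2 and INC424 48 h library 2 that they were run again or on more than 1 lane. A fit with that as a term kept the 5 calls at 4 h and the 6 at 48 h. Among libraries not run again, which leaves 1 library each at 4 h and with DMSO, DUSP6, DUSP5 and SPRED1 still passed at 4 h, while SPRED2 and SPRY2 did not (log2 change -0.33 and -0.20, adjusted p = 0.45 and 0.69). For 48 h against 4 h, ETV4 and ETV5 still passed, while SPRED1, SPRED2 and SPRY2 did not (0.37, -0.57 and 0.23, adjusted p = 0.22, 0.059 and 0.46). That fit assumes that a lone library varies like the other groups.

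The control groups themselves differed. DMSO cells at 4 h were lower than naive cells in 6 of the 10 genes, against 20.4% of all genes lower in that comparison, and higher in none, against 17.3%. DUSP6 averaged 116 ± 14.7 normalised counts with DMSO and 754 ± 53.4 in naive cells (SD, n = 3 each, log2 change -2.70 ± 0.24, adjusted p = 8.25e-09). ETV5 averaged 208 ± 12.1 with DMSO and 1080.2 ± 32 in naive cells (-2.37 ± 0.18, adjusted p = 5.3e-10). These libraries did not overlap. ETV4, SPRED1, SPRED2 and SPRY1 were also lower with DMSO, by -1.01, -0.92, -0.73 and -0.44 on the log2 scale. The SPRY1 call is lost without DMSO library 3 or naive library 1 (adjusted p = 0.14 and 0.1), with all 24 libraries (0.49), with a run-again term (0.065), in the fit of only the groups compared (0.051) and among libraries not run again (0.3). DUSP5, DUSP4, SPRY2 and SPRY4 did not pass. The lines are therefore set against naive cells and acute exposure against DMSO, and a level of a line cannot be compared directly with an acute level without this difference.

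The persistent lines fell into different patterns. The BMS911543 and INC424 lines each had 7 of the 10 genes lower than naive cells, against 19.3% and 17.5% of all genes, the SAR302503 line had 4, against 16.1%, and the CYT387 line had 1, against 8.86%. No line had any of the 10 genes higher, against 16.1%, 9.54%, 15.7% and 14.6% of all genes with BMS911543, CYT387, INC424 and SAR302503. The median log2 change of the 10 genes was -1.43 in the BMS911543 line, -0.20 in the CYT387 line, -1.52 in the INC424 line and -0.24 in the SAR302503 line. The medians of all genes lay within 0.03 of 0. DMSO cells, given no inhibitor, had 6 of the 10 genes lower than naive cells, against 20.4% of all genes, with a median of -0.64.

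DUSP6 had a separate level in each line. It had 46.5, 27.2 and 23.4 normalised counts in the BMS911543 line, 515 and 521 in the CYT387 line, 97.5, 86 and 64.2 in the INC424 line, 153, 194 and 166 in the SAR302503 line, and 816, 729 and 718 in naive cells. None of these 5 groups overlapped another. DMSO cells, given no inhibitor, stood at -2.70 ± 0.24 from naive cells on the log2 scale, between the INC424 and SAR302503 lines. Against naive cells the log2 change was -4.56 ± 0.24 in the BMS911543 line (adjusted p = 3.53e-13), -3.19 ± 0.24 in the INC424 line (adjusted p = 2.17e-10) and -2.14 ± 0.24 in the SAR302503 line (adjusted p = 3.19e-07). In the CYT387 line it was -0.54 ± 0.27 and did not pass (adjusted p = 0.18), though it did in DESeq2 and in a fit of these groups alone (adjusted p = 0.038 and 0.031).

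DUSP5 gave another order. Its levels were 62.9, 56.4 and 35.6 normalised counts in the BMS911543 line, 223 and 177 in the CYT387 line, 56.7, 79.2 and 70.5 in the INC424 line, 66.8, 31.8 and 29.1 in the SAR302503 line, and 103, 147 and 102 in naive cells. Both CYT387 libraries were above all naive libraries, and the libraries of the other lines were below them. DUSP5 fell in the SAR302503 line (log2 change -1.52 ± 0.35, adjusted p = 0.0016) and in the BMS911543 line (-1.19 ± 0.35, adjusted p = 0.0092), the call of BMS911543 being lost without its library 3 (adjusted p = 0.063). The changes in the INC424 line (-0.75 ± 0.35) and the CYT387 line (0.78 ± 0.39) did not pass (adjusted p = 0.099 and 0.17), though that of the INC424 line did in DESeq2 and in a fit of these groups alone (adjusted p = 0.048 and 0.046). DUSP4 had 0 to 5 reads per library in the BMS911543 line, 6 and 13 in the CYT387 line, 16 to 25 in the INC424 line, 1 to 27 in the SAR302503 line and 3 to 11 in naive cells. It was above naive cells in every INC424 library, and no line passed the test.

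SPRED1 fell in all 4 lines, though barely past the threshold in one. It averaged 548 ± 54.5 normalised counts in the BMS911543 line, 314 ± 42.8 in the INC424 line and 727 ± 176 in the SAR302503 line, against 1549 ± 112 in naive cells (SD, n = 3 each), and had 1133 and 1039 in the CYT387 line. No library of a line reached the lowest naive library, at 1421. Cells given DMSO and no inhibitor stood at -0.92 ± 0.16 from naive cells on the log2 scale, between the CYT387 and SAR302503 lines. The log2 change was -1.50 ± 0.16 in the BMS911543 line (adjusted p = 6.1e-08), -2.31 ± 0.16 in the INC424 line (adjusted p = 3.13e-11) and -1.12 ± 0.16 in the SAR302503 line (adjusted p = 7.74e-06). In the CYT387 line it was -0.51 ± 0.18 (adjusted p = 0.047), the only call of that line, and it is lost when any of 16 of the 23 libraries is left out (adjusted p up to 0.25) and in the fits with no filter, with TMM scaling and with no trend (adjusted p 0.053 to 0.07).

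SPRED2 divided the lines otherwise. It averaged 612 ± 49.5 normalised counts in the BMS911543 line, 494 ± 34.4 in the INC424 line and 923 ± 86.3 in the SAR302503 line, against 957 ± 115 in naive cells (SD, n = 3 each), with 823 and 771 in the CYT387 line. The BMS911543 and INC424 libraries were below all naive libraries, and so, narrowly, were the CYT387 libraries. The changes in the BMS911543 and INC424 lines were -0.64 ± 0.13 and -0.95 ± 0.13 on the log2 scale (adjusted p = 0.00031 and 2.17e-06). Cells given DMSO and no inhibitor stood at -0.73 ± 0.13 from naive cells, between these lines, and their libraries overlapped those of the BMS911543 line. The changes in the SAR302503 line (-0.05 ± 0.13) and the CYT387 line (-0.26 ± 0.14) did not pass (adjusted p = 0.8 and 0.23).

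SPRY2, an inhibitor of receptor signalling to RAS, showed the same division. It had 276, 275 and 234 normalised counts in the BMS911543 line, 678 and 599 in the CYT387 line, 247, 255 and 251 in the INC424 line, 462, 524 and 423 in the SAR302503 line, and 532, 497 and 581 in naive cells. The BMS911543 and INC424 libraries lay far below the naive ones, the SAR302503 libraries overlapped them and the CYT387 libraries lay just above. The fall was 2.05-fold in the BMS911543 line and 2.13-fold in the INC424 line (adjusted p = 5.72e-07 and 2.58e-07). The other lines did not pass (adjusted p = 0.26 for SAR302503 and 0.24 for CYT387).

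SPRY1 passed in the INC424 line and in no other, at 247, 182 and 248 normalised counts against 452, 371 and 366 in naive cells (log2 change -0.82 ± 0.15, adjusted p = 0.00015). It had 347, 363 and 359 in the BMS911543 line, 457 and 517 in the CYT387 line and 469.7, 503 and 487 in the SAR302503 line. The last 2 lines lay above the naive libraries without passing (log2 change 0.30 in each, adjusted p = 0.23 and 0.14). Cells given DMSO and no inhibitor stood at -0.44 ± 0.15 from naive cells, between the INC424 and BMS911543 lines. In the fit of all 24 libraries, in which CYT387 library 2 has 3375 counts, the INC424 call is lost (adjusted p = 0.19) and CYT387 is called higher (1.23, adjusted p = 0.043). SPRY4 had 2 to 3 reads per library in the BMS911543 line, 2 and 15 in the CYT387 line, 0, 11 and 0 in the INC424 line, 19, 1 and 33 in the SAR302503 line, and 4, 5 and 15 in naive cells, and no line passed. Without INC424 line library 2, which holds all 11 reads of its group and is among the libraries with squamous RNA, the change of SPRY4 in that line was -3.07 (adjusted p = 0.02, or 0.015 without all 4 libraries richest in squamous RNA), against -1.95 with it (adjusted p = 0.13).

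ETV4 had 196, 141 and 119 normalised counts in the BMS911543 line, 2256 and 1797 in the CYT387 line, 259, 299 and 221 in the INC424 line, 2101, 1793 and 2906 in the SAR302503 line, and 2692, 2498 and 2976 in naive cells. Every BMS911543 and INC424 library was far below every library of the other lines, and SAR302503 overlapped naive cells while both CYT387 libraries lay just below them. The fall was 18.2-fold in the BMS911543 line (log2 change -4.18 ± 0.27, adjusted p = 1.02e-11) and 10.5-fold in the INC424 line (-3.39 ± 0.27, adjusted p = 4.24e-10). In the SAR302503 and CYT387 lines the changes were -0.29 ± 0.27 and -0.43 ± 0.30 and did not pass (adjusted p = 0.45 and 0.36). Cells given DMSO and no inhibitor stood at -1.01 ± 0.27 from naive cells, between the CYT387 and INC424 lines. Without the 4 libraries richest in squamous RNA, the SAR302503 value was -0.48 (adjusted p = 0.043), with library 2 of that line kept.

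ETV5 was graded. It had 264, 234 and 210.4 normalised counts in the BMS911543 line, 780.3 and 794 in the CYT387 line, 170.1, 204 and 201 in the INC424 line, 551, 616 and 553 in the SAR302503 line, and 1059.6, 1117 and 1064 in naive cells. All libraries of the lines were below the naive ones, and none of these 5 groups overlapped another. DMSO cells, given no inhibitor, stood at -2.37 ± 0.18 from naive cells on the log2 scale, between the INC424 and BMS911543 lines. The log2 change was -2.19 ± 0.18 in the BMS911543 line, -2.49 ± 0.18 in the INC424 line and -0.91 ± 0.18 in the SAR302503 line (adjusted p = 7.92e-10, 7.32e-11 and 0.0004), and -0.46 ± 0.20 in the CYT387 line, which did not pass (adjusted p = 0.12) but did in DESeq2 and in a fit of these groups alone (adjusted p = 0.036 in both) and among libraries not run again (adjusted p = 0.049).

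Of the libraries compared here, BMS911543 library 1, INC424 line library 3 and SAR302503 libraries 1 and 3 were run again, and no naive or CYT387 library was. Among libraries not run again, every call of the BMS911543, INC424 and SAR302503 lines against naive cells was kept. That fit holds 1 library of the SAR302503 line, library 2, which is among those with squamous RNA, and it assumes that this library varies like the other groups.

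**Figure D3:**
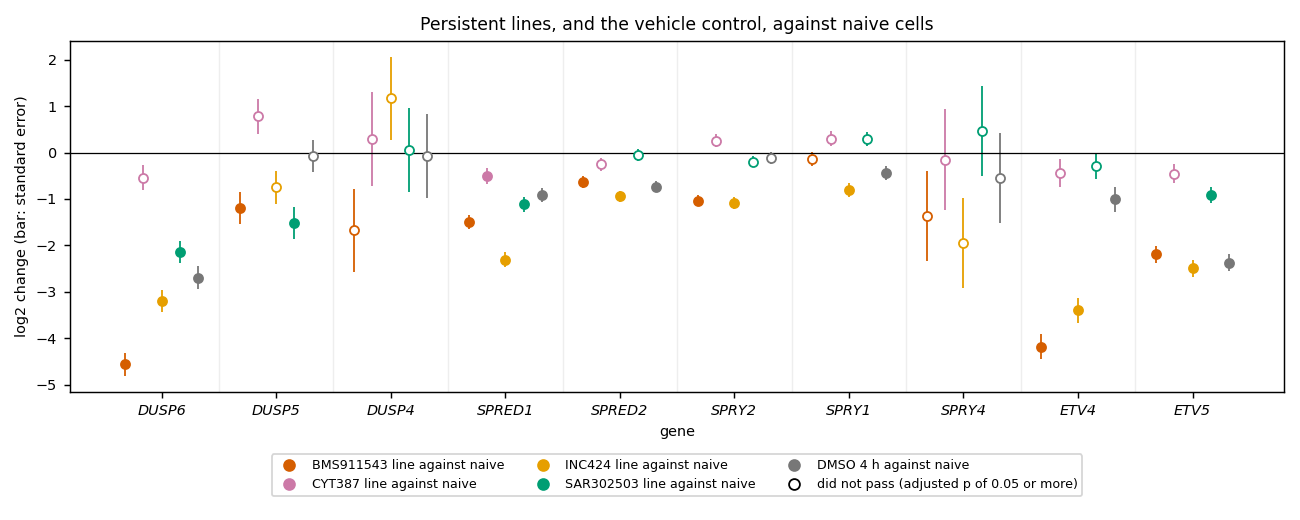
Fitted log2 change of each gene in the 4 persistent lines and in DMSO cells, each against naive cells, with bars for 1 standard error and open points where the adjusted p was 0.05 or more. The BMS911543 and INC424 lines are low in DUSP6, SPRED1, ETV4 and ETV5, the CYT387 line lies near 0 for most genes, and DMSO cells are low in DUSP6 and ETV5.

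Across the 4 lines, 8 of the 10 genes differed in an F test with 3 degrees of freedom, against 54.8% of all genes. ETV4 had the smallest adjusted p (1.4e-11), followed by DUSP6 (1.39e-10) and ETV5 (6.62e-09). DUSP4 and SPRY4, the genes with few reads, did not pass (adjusted p = 0.057 and 0.13). As doses are not given, these are differences between lines and not between compounds at a matched dose. Over all 8 groups, the order of mean levels differed by gene: DUSP6 was highest in naive cells and lowest at 4 h of INC424, and ETV4 was highest in naive cells and lowest at 48 h. For DUSP6 only the 48 h and 4 h groups, neighbours at the low end, overlapped, whereas for DUSP4 every pair of neighbours overlapped. For ETV4 the naive, SAR302503 and CYT387 groups overlapped in turn, as did 4 h INC424 and DMSO.

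Levels in the INC424 line were also set against those at 48 h of the same inhibitor. This difference of levels also holds the difference between naive and DMSO cells, which the next comparison subtracts. That step assumes that the line and the 48 h cells carry the same log2 offset as their controls, which was not tested. With it subtracted, DUSP6 stands at -0.22 in place of 2.48 and ETV5 at -1.14 in place of 1.23. Of the 10 genes, 6 were higher in the line, against 19.7% of all genes, and 3 were lower, against 21%. DUSP6 averaged 82.6 ± 16.9 normalised counts in the line and 13.9 ± 2.44 at 48 h (SD, n = 3 each, log2 change 2.48 ± 0.24, adjusted p = 1.7e-08). ETV4 averaged 259.5 ± 38.9 in the line and 56.5 ± 35.6 at 48 h (2.34 ± 0.27, adjusted p = 1.99e-07). DUSP5, ETV5 and SPRED2 were higher by 1.29, 1.23 and 0.96. SPRY2, SPRY1 and SPRED1 were lower in the line, by -0.88, -0.69 and -0.41. The higher DUSP4 (2.40 ± 0.90, adjusted p = 0.036, or 1.18 with a pseudocount of 10) rests on 16 to 25 reads per library in the line and 2 to 4 at 48 h. The call is lost when any 1 of these 6 libraries is left out (adjusted p 0.058 to 0.1). It is also lost without the 4 libraries richest in squamous RNA (adjusted p = 0.12), with a pseudocount of 0.5 (0.058) and with no trend (0.051). The call of SPRED1 is lost without INC424 line library 1 or 3 or 48 h library 1 or 2 (adjusted p 0.052 to 0.2), with TMM scaling (0.05022) and with no trend (0.058). With all 24 libraries the calls of DUSP4, SPRY1 and SPRED1 are lost (adjusted p = 0.074, 0.25 and 0.078), and among libraries not run again those of DUSP4 and SPRED1 (adjusted p = 0.067 and 0.2).

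Because the controls differ, each line's change from naive cells was also compared with the 48 h change from DMSO, in a test of the difference of the 2 changes. Of 40 such differences, 17 passed, or 42.5%, against 40.7% of these tests over all genes. In the CYT387 line 5 of 10 genes had a higher value than at 48 h, against 16.2% of all genes: ETV4 by 4.30 ± 0.40, DUSP5 by 2.74 ± 0.52, DUSP6 by 2.43 ± 0.37 (3.07 with all 24 libraries), SPRED2 by 0.91 ± 0.19 and ETV5 by 0.90 ± 0.27. None had a lower value there, against 16.9%. In the SAR302503 line 2 did, ETV4 by 4.44 ± 0.38 and SPRED2 by 1.12 ± 0.18, against 19.9% of all genes, and none had a lower one, against 22%. DUSP6 stood at 0.84 ± 0.35 there and did not pass (adjusted p = 0.056). It passed with a pseudocount of 0.5, a filter at 50, TMM scaling, no trend, only the groups compared, edgeR and DESeq2 (adjusted p 0.019 to 0.048), and without BMS911543 library 1, BMS911543 library 3 or 48 h library 3 (adjusted p 0.032 to 0.046). ETV5 passed without 48 h library 3 (0.64, adjusted p = 0.04) or without the 4 libraries richest in squamous RNA (0.67, adjusted p = 0.036).

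In the INC424 line DUSP5 and ETV4 had higher values than at 48 h (1.21 ± 0.49 and 1.33 ± 0.38, 2 of 10 against 20.7% of all genes), and SPRED1, ETV5, SPRY1 and SPRY2 had lower ones (-1.33, -1.14, -1.14 and -1.0, 4 of 10 against 22.7%). For DUSP6 the difference was -0.22 ± 0.35 and did not pass (adjusted p = 0.64). The DUSP5 call (adjusted p = 0.048) is lost when any of 11 libraries is left out (adjusted p 0.051 to 0.15), with a replicate block (adjusted p = 0.057), with no filter (0.065) and with a run-again term (0.08). DUSP4 passed there in the fit of only the groups compared (2.33, adjusted p = 0.046). In the BMS911543 line DUSP6, SPRY2 and ETV5 had lower values than at 48 h (-1.59 ± 0.35, -0.94 ± 0.18 and -0.84 ± 0.25, 3 of 10 against 23.6%) and SPRED2 a higher one (0.53 ± 0.18, 1 of 10 against 20.8%). The SPRED2 call is lost without BMS911543 library 3, DMSO library 2, 48 h library 2 or naive library 1 (adjusted p 0.05 to 0.065). ETV4 did not pass there (0.55 ± 0.38, adjusted p = 0.26), but without 48 h library 3 it did (1.02, adjusted p = 0.006), as it did without the 4 libraries richest in squamous RNA (1.02, adjusted p = 0.0016). SPRED1 passed there without 48 h library 3 or SAR302503 library 2 or 3 (-0.64, -0.52 and -0.52, adjusted p 0.021 to 0.044), without the 4 libraries richest in squamous RNA (adjusted p = 0.0054), in DESeq2 (0.045) and in the fit of only the groups compared (0.021). With all 24 libraries, SPRED2 with BMS911543 and DUSP5 and SPRY1 with INC424 do not pass (adjusted p = 0.12, 0.073 and 0.17). Among libraries not run again, SPRED2 and ETV5 with CYT387 (0.65 and 0.70), DUSP5 and ETV4 with INC424 (1.44 and 0.86) and SPRED2 with BMS911543 (0.26) do not pass (adjusted p 0.058 to 0.4), and ETV4 with SAR302503 stands at 3.54 (adjusted p = 0.00014). The 4 comparisons share the 48 h, DMSO and naive libraries, so they are not independent of each other.

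**Figure D4:**
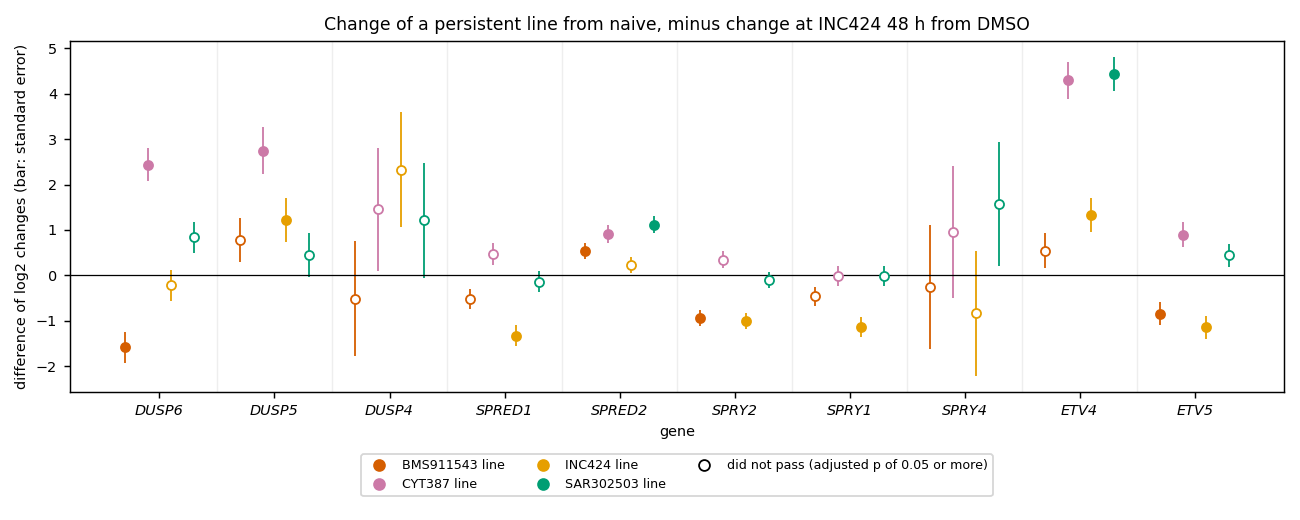
Difference, for each gene and line, between the log2 change from naive cells and the log2 change of 48 h INC424 from DMSO, with bars for 1 standard error and open points where the adjusted p was 0.05 or more. ETV4 stands at 4.30 in the CYT387 line and 4.44 in the SAR302503 line, and DUSP6 at 2.43 in the CYT387 line and -1.59 in the BMS911543 line.

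The counts of the other lists stand against shares of all genes tested. Of all genes, 6.84% fell and 9.84% rose at 4 h, and 21.5% fell and 23.1% rose at 48 h. In the lines, 19.3% fell and 16.1% rose with BMS911543, 8.86% and 9.54% with CYT387, 17.5% and 15.7% with INC424, and 16.1% and 14.6% with SAR302503. With DMSO, 20.4% of all genes were lower than in naive cells and 17.3% higher.

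Of 10 paralogues of the feedback genes tested, 2 fell at 4 h and 2 at 48 h and none rose, and the share that fell at 48 h is near that of all genes. DUSP2, a nuclear phosphatase of ERK and p38, averaged 154 ± 13.2 normalised counts at 4 h and 683 ± 140.0 with DMSO (SD, n = 3 each, log2 change -2.12 ± 0.21). In the lines, 2 of 10 fell and 1 rose with BMS911543, 1 fell and 4 rose with CYT387, 5 fell and 2 rose with INC424, and 2 fell and 1 rose with SAR302503. With DMSO, 1 was lower than in naive cells and 2 were higher. The ERK phosphatase gene DUSP9 averaged 221 ± 5.06 in the CYT387 line (n = 2) and 58.2 ± 14.5 in naive cells (log2 change 1.94 ± 0.48), and fell in the BMS911543 and INC424 lines. DUSP16, a phosphatase of JNK and p38, averaged 536 ± 47.5 in the SAR302503 line and 98.2 ± 37.9 in naive cells (2.50 ± 0.26). ETV1, the other member of the ETV4 group of ETS factors, fell in the BMS911543 line (-3.94 ± 0.51), the INC424 line (-1.74 ± 0.51) and the CYT387 line (-1.62 ± 0.57, adjusted p = 0.0495), and was also lower in DMSO cells than in naive cells (-2.69 ± 0.51).

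Of 25 other genes that ERK induces, 23 were tested, and 12 fell and 3 rose at 4 h, 11 fell and 3 rose at 48 h. In the lines, 10 fell and 2 rose with BMS911543, 1 fell and 6 rose with CYT387, 13 fell and 3 rose with INC424, and 8 fell and 2 rose with SAR302503. Their median log2 change was -0.76 at 4 h and -0.98 at 48 h, and -0.47, 0.24, -0.84 and -0.16 in the 4 lines in that order. With DMSO and no inhibitor, 9 of the 23 were lower than in naive cells and 2 higher, with a median of -0.38. EGR1, an immediate early transcription factor, had 133, 165 and 163 normalised counts at 48 h, 48.7, 88.4 and 58.1 at 4 h, and 833, 1020.2 and 1119.7 with DMSO. It averaged 167 ± 46 in the BMS911543 line, 192 ± 42.5 in the INC424 line and 2315 ± 114 in the SAR302503 line, against 7592 ± 374 in naive cells, and had 12698 and 12421 in the CYT387 line. EGR1 was thus low where DUSP6 was low, and above naive cells in the CYT387 line. The DMSO cells, without inhibitor, were also far below naive cells in EGR1, and below the SAR302503 line. FOS, an AP-1 gene of the same early class, was higher in the CYT387 line (1282 ± 17.3 against 82.3 ± 8.7 in naive cells, log2 change 3.95 ± 0.38) and lower at 4 h (-2.49 ± 0.34). LIF, a cytokine gene, was lower in the SAR302503 line (-4.15 ± 0.22).

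Genes of the cascade itself passed in both directions, in several comparisons in shares near those of all genes. Of 36 components, 7 rose and 2 fell at 4 h, and 11 rose and 12 fell at 48 h. In the lines the counts were 5 up and 8 down with BMS911543, 5 and 4 with CYT387, 4 and 10 with INC424, and 8 and 4 with SAR302503, with medians between -0.15 and 0.06. With DMSO, 5 were higher than in naive cells and 10 lower. RASGRP3, which encodes an exchange factor that loads RAS with GTP, rose in all 4 lines, to 1178 ± 52.7 normalised counts in the BMS911543 line, 1629.7 ± 89.8 in the CYT387 line, 1756 ± 41.4 in the INC424 line and 496 ± 18.8 in the SAR302503 line, against 284 ± 29.7 in naive cells. Its paralogue RASGRP4 fell in all 4 (log2 changes -1.78, -1.15, -2.04 and -2.19 in the same order). At 4 h the adaptor gene GAB1 rose (0.91 ± 0.13), and at 48 h HRAS fell (-1.08 ± 0.19) and SOS1 rose (0.94 ± 0.18).

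Of 18 receptors tested that feed the cascade, 6 rose and none fell at 4 h, and 7 rose and 2 fell at 48 h, with INSR, the insulin receptor gene, at 0.77 ± 0.10 and 1.33 ± 0.10. In the lines, 5 rose and 8 fell with BMS911543, 2 and 4 with CYT387, 5 and 9 with INC424, and 4 and 6 with SAR302503. With DMSO, 3 were higher than in naive cells and 6 lower. KIT, the stem cell factor receptor gene, fell in all 4 lines (log2 changes -2.83, -1.11, -3.02 and -2.41). EGFR was higher in the INC424 and SAR302503 lines (5.37 ± 1.76 and 5.48 ± 1.76), the lines in which most squamous markers were also higher, and the part of squamous RNA in this was not tested.

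The feedback genes of JAK and STAT give a comparison with the neighbouring branch. Of 14, none rose and 10 fell at 4 h, and 1 rose and 10 fell at 48 h. In the lines, 0 rose and 8 fell with BMS911543, 6 rose and 1 fell with CYT387, 2 and 5 with INC424, and 4 and 5 with SAR302503. With DMSO and no inhibitor, 0 were higher than in naive cells and 7 lower, with a median log2 change of -0.29. SOCS3, an inhibitor of JAK kinases, averaged 291 ± 10.9 normalised counts at 4 h and 3165 ± 465 with DMSO (log2 change -3.43 ± 0.13). At 48 h it averaged 585 ± 33.4, and its change from naive cells was -3.12 ± 0.13 in the BMS911543 line, 0.76 ± 0.14 in the CYT387 line, -1.93 ± 0.13 in the INC424 line and 1.04 ± 0.13 in the SAR302503 line. SOCS3 was thus higher than in naive cells in the CYT387 and SAR302503 lines and lower in the other 2. IL2RA, a STAT5 target, was lower in all 4 lines, from -8.10 ± 0.23 in the BMS911543 line to -2.38 ± 0.26 in the CYT387 line. DMSO cells were also lower in IL2RA than naive cells, to a like degree as the CYT387 line.

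**Figure D5:**
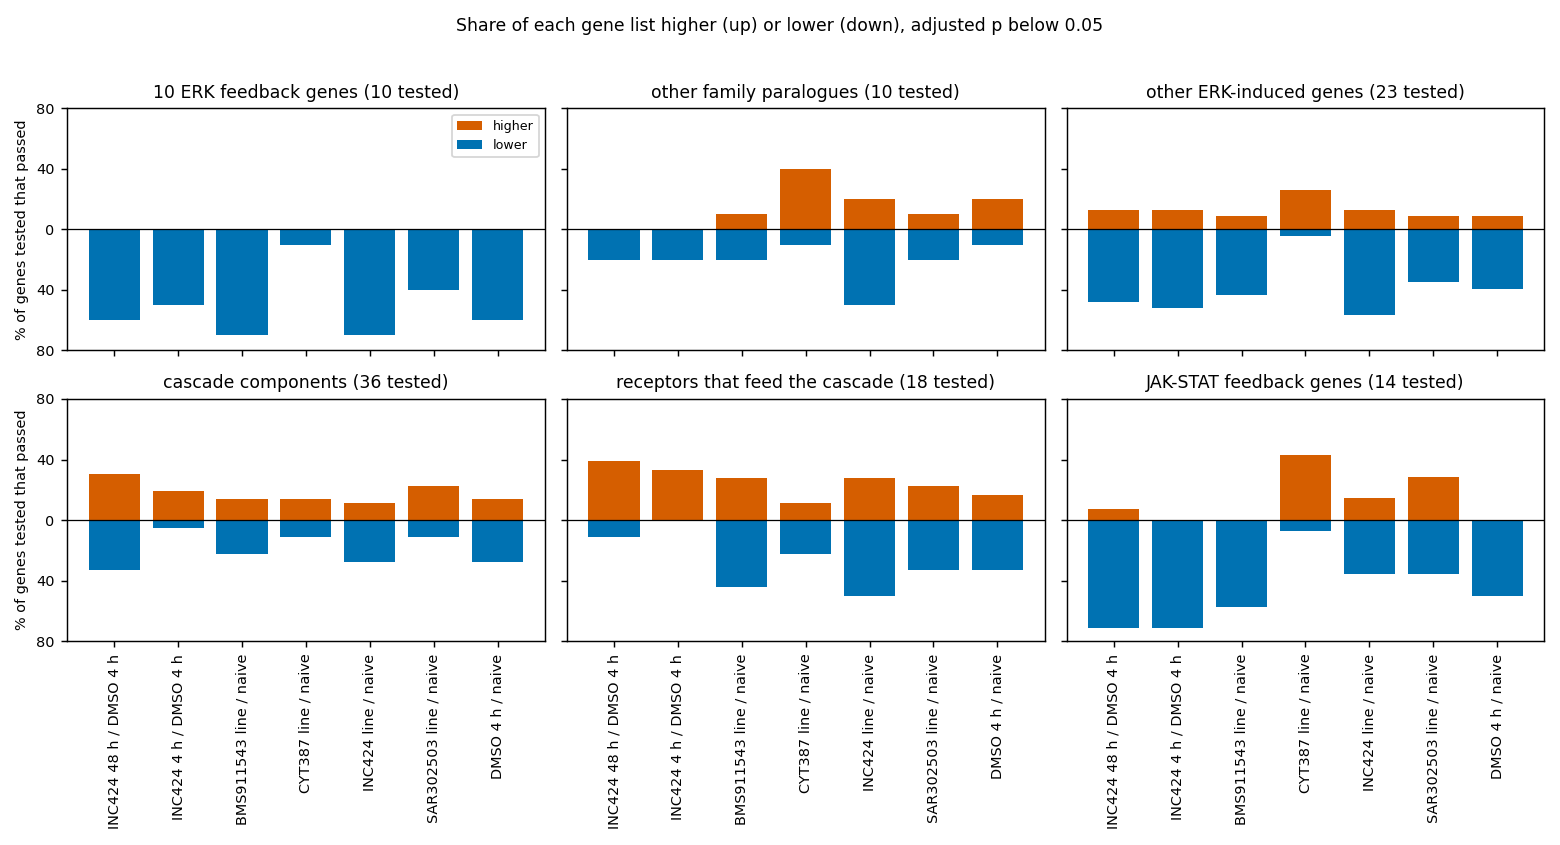
Percentage of the tested genes of 6 lists that were higher (upward bars) or lower (downward bars) with an adjusted p below 0.05, in 7 comparisons with the reference named after the slash. The lists are the 10 ERK feedback genes, their paralogues, other ERK-induced genes, cascade components, receptors and JAK-STAT feedback genes; the CYT387 line stands out with 1 of 10 feedback genes lower, 6 of 23 other ERK-induced genes higher and 6 of 14 JAK-STAT feedback genes higher.

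Strand-aware counting is not stated in the sources used here, and antisense transcripts overlap SPRY4 and ETV5, so reads from either strand at these loci cannot be told apart.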

How the data were processed

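RNA was poly(A)-selected, cut with RNase III, amplified over 16 PCR cycles and read on an Ion Proton, per the labels. The deposited values are a normalised signal. The submitters' processing notes name BWA 0.7.5.1, HTSeq 0.5.3p3, DESeq 1.10.1, hg19 and GRCh37 without their roles. Within each library all values were multiples of 1 smallest step to within 0.01, as read counts divided by 1 factor per library would be, so reads were recovered by dividing by that step. That step differs from 1 by less than 0.01 in 3 libraries, whose deposited values are themselves nearly whole.

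Genes with at least 10 normalised counts in at least 3 of 23 libraries were kept. log2(count + 1) values of the 8 groups were fitted in limma 3.58.1 under R 4.3.3, with a trended empirical Bayes spread on 15 residual degrees of freedom, two-sided, with Benjamini-Hochberg adjustment over the 19882 genes of each comparison and a threshold of 0.05. CYT387 persistent library 2 was left out. The fit was tested on simulated data. Intervals and floors cover counting error only.

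All 10 genes are reported. The 9 other lists are paralogues, other ERK-induced genes, cascade components, receptors, JAK-STAT feedback genes and markers of megakaryoblasts, squamous epithelium, stroma with vessel and macrophages, and lymphoid cells. Up to 4 genes past the threshold with the largest change per list and comparison may be named. Genes followed from one comparison into another, and KRT5, were chosen after their values were seen. The genes and lists were chosen with earlier results of these data known.

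Alternatives were pseudocounts of 0.5 and 10, other filters, TMM and upper-quartile scaling, no trend, a robust fit, a fit of only the groups compared, the replicate number as a block, a term for libraries run again, edgeR 4.0.16 and DESeq2 1.42.0 on the recovered reads, other sets of libraries, and leaving out each library in turn. The fit of only the libraries not run again was chosen after seeing the data.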

Additional observations from a re-analysis of the deposited data

Results flagged for a closer look

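The change of a persistent line from naive cells differed from the change at 48 h of INC424 from DMSO in 17 of 40 tests of that difference, or 42.5%, against 40.7% of the same tests over all genes. It is given here as the first log2 change minus the second. In the BMS911543 line it was -1.59 for DUSP6, -0.94 for SPRY2, -0.84 for ETV5 and 0.53 for SPRED2. In the CYT387 line it was 4.30 for ETV4, 2.74 for DUSP5, 2.43 for DUSP6, 0.91 for SPRED2 and 0.90 for ETV5. In the INC424 line it was 1.33 for ETV4, 1.21 for DUSP5, -1.33 for SPRED1, -1.14 for SPRY1, -1.14 for ETV5 and -1.0 for SPRY2. In the SAR302503 line it was 4.44 for ETV4 and 1.12 for SPRED2.

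In 8 of the 10 genes the 4 persistent lines differed among themselves, against 54.8% of all genes. The adjusted p of the F test was 1.4e-11 for ETV4, 1.39e-10 for DUSP6, 6.62e-09 for ETV5, 2.09e-08 for SPRY2, 8.34e-08 for SPRED1, 4.43e-06 for SPRY1, 1.49e-05 for SPRED2 and 0.00019 for DUSP5.

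CYT387 persistent library 2, which entered no comparison, had 6 of the 10 genes above all 23 other libraries, against 24.2% of all genes tested. SPRY1 stood at 3375 normalised counts, 6.93 times the mean of CYT387 libraries 1 and 3, SPRY4 at 1252 (137 times), DUSP6 at 1943 (3.75 times), SPRED2 at 1464 (1.84 times), DUSP4 at 75.0 (6.89 times) and DUSP5 at 240.9 (1.2 times). ETV4 (0.563 times), SPRED1 (0.776 times), SPRY2 (0.82 times) and ETV5 (0.885 times) were below that mean. Squamous markers took 0.448% of the reads of that library, markers of stroma, vessel and macrophages 0.693% and megakaryoblast markers 0.401%, against 0.774% and 0.769% for megakaryoblast markers in CYT387 libraries 1 and 3. The part of other cells' RNA in these levels was not tested.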

How the results depend on the processing

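Of 5030 recomputed values of the 10 genes, 4903 kept their direction and side of the threshold, 83 were no longer past it, 44 were newly past it and 0 reversed. Of the counts of genes called, that of the CYT387 line against naive cells (1) was 2 with all 24 libraries and with only libraries not run again, 0 with no filter, TMM scaling or no trend, and 3 in DESeq2 and in the fit of only the groups compared. With only libraries not run again, the counts fell to 3 at 4 h against DMSO (reported as 5), 2 at 48 h against 4 h (reported as 5) and 3 for the CYT387 line minus 48 h (reported as 5). Leaving out 1 library gave 0 to 1 genes for the CYT387 line against naive cells and 2 to 4 for the SAR302503 line minus 48 h (reported as 2), and within 1.5 times the reported count elsewhere. The replicate numbers did not pair the libraries, as same-numbered libraries deviated from their group means with correlations of -0.202 to 0.179. With the replicate number as a block, 1 call of the 10 genes changed, DUSP5 in the INC424 line minus 48 h (log2 1.21, adjusted p = 0.057). Over all genes, 3316 passed at 4 h against DMSO, but 1687 with all 24 libraries, 5190 in the fit of only the groups compared and 797 among libraries not run again. For 48 h against 4 h these were 5073, 2967, 7686 and 2849. The SAR302503 line against naive cells had 6090, but 3888 with all 24 libraries and 2663 in the fit of only the groups compared, DMSO against naive cells 7506, but 4702 among libraries not run again, and the CYT387 line against naive cells 3659, but 1932 and 2038 without its library 1 or 3. Higher genes at 4 h were 1956 of 3316, and 559 of 797 among libraries not run again. With TMM scaling the median log2 value of all genes was 0.11 for the CYT387 line minus 48 h, against 0.03. DUSP4 and SPRY4, with few reads, are limited by depth.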

Other observations

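Among all genes with a mean of at least 50 normalised counts, those whose mean log2 levels over the 8 groups were most like a feedback gene's are given by Pearson's r as a description, and all rest on the same 8 group means. For DUSP6 they were MCL1, an anti-apoptotic gene that is also on the list of ERK-induced genes, at 0.97, FAM32A at 0.97 and TIMM9 at 0.96. For ETV4 they were GK (0.98), PPP1R16B (0.96) and FCGR2A (0.95), for ETV5 ZNF384 (0.97), RELL1 (0.96) and JAK3 (0.93), and for SPRED1 PLEKHF1 (0.96), LENG9 (0.95) and DBI (0.94). SPRY2 was most like HES1, a target of Notch signalling (0.97), SPRED2 most like LONRF1 (0.97), DUSP5 most like MAT2A (0.95) and SPRY1 most like COL8A2 (0.97).

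Among the feedback genes themselves, r over the 8 groups was 0.894 for ETV5 and SPRED2, 0.868 for DUSP6 and SPRED1, 0.857 for DUSP5 and DUSP6, 0.845 for ETV4 and ETV5, and 0.369 for DUSP5 and ETV4. For SPRY1 and SPRY2 it was 0.658, and for SPRY1 and DUSP5 0.109.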
